A study of Homo sapiens with 6 samples.

Results

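The 43 genes described here act at the passage from G1 into S phase and in the copying of DNA. They were chosen by symbol, and each matched 1 row among the 20036 genes of the deposited table. The RNA came from MV411, a human cell line grown from a monocytic acute myeloid leukaemia and known for its KMT2A fusion and FLT3 internal tandem duplication, here labelled wild type. Cells were kept for 48 h with corilagin, a plant ellagitannin for which the labels name no dose, or with the vehicle DMSO, and each group has 3 libraries. Whether separate cultures were used is not stated in the labels, so each p-value reflects only how far these libraries spread. All cells are 1 cell line, and in RNA from a whole culture fewer cells in S phase cannot be told apart from less RNA per cell.

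Loading and firing of replication origins are kept apart in time. In G1, the origin recognition complex with CDC6 and CDT1 loads the MCM2 to MCM7 ring onto origins, which is called licensing, and geminin (GMNN) blocks CDT1 once S phase has begun. In S phase, CDC45 and the GINS complex turn the ring into an active helicase, and polymerases, the PCNA clamp and its RFC loader copy the opened strands. Many of these genes are transcribed by E2F factors when cyclin-dependent kinases inactivate RB, and CDKN1A (p21) inhibits those kinases.

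Levels are in FPKM, the fragments of a gene per kilobase of its length, scaled to the size of the library. The libraries held 17741626 to 21605858 fragments in listed genes, as recovered from the FPKM steps, and each of the 43 genes had between 415 and 20303 fragments in every library. SPI1 (109 to 158 FPKM), FLT3 (186 to 318 FPKM), CD33 (21.2 to 25.1 FPKM) and HOXA9 (13.5 to 15.2 FPKM) marked the line, whereas MPO (0.321 to 1.93 FPKM) and CD14 (0.0931 to 0.340 FPKM) were low. Among markers of other cell types, HBB and EPCAM were at 0 in all libraries, CD3E and ALB lay under 0.1 FPKM, COL1A1 reached 0.108 FPKM, and KRT8 (1.30 to 2.15 FPKM) was detected.

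The libraries did not fall cleanly by treatment. DMSO replicate 3 stood apart from DMSO replicates 1 and 2 in a way that followed the GC content of the transcripts, and for 30 of the 43 genes it lay nearer to the corilagin mean than to the mean of the other DMSO libraries. As a description over the 43 genes, which share these libraries and are not independent, the Spearman correlation between GC content and the shift from DMSO replicate 3 to corilagin was -0.27. For the shift between DMSO replicate 3 and its fellow DMSO libraries it was -0.897. The values over 9859 tested genes were -0.00728 and -0.843. USP1, whose transcript is 40.9% GC, was 1.41 log2 units higher in DMSO replicate 3 than in the mean of DMSO replicates 1 and 2, and CDT1, at 64.9% GC, was 0.45 lower. For this reason differences are also given after GC correction, in which a smooth trend on GC content was taken out of every library (marked as GC trend removed in the plots), and against DMSO replicate 3 alone.

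**Figure D1:**
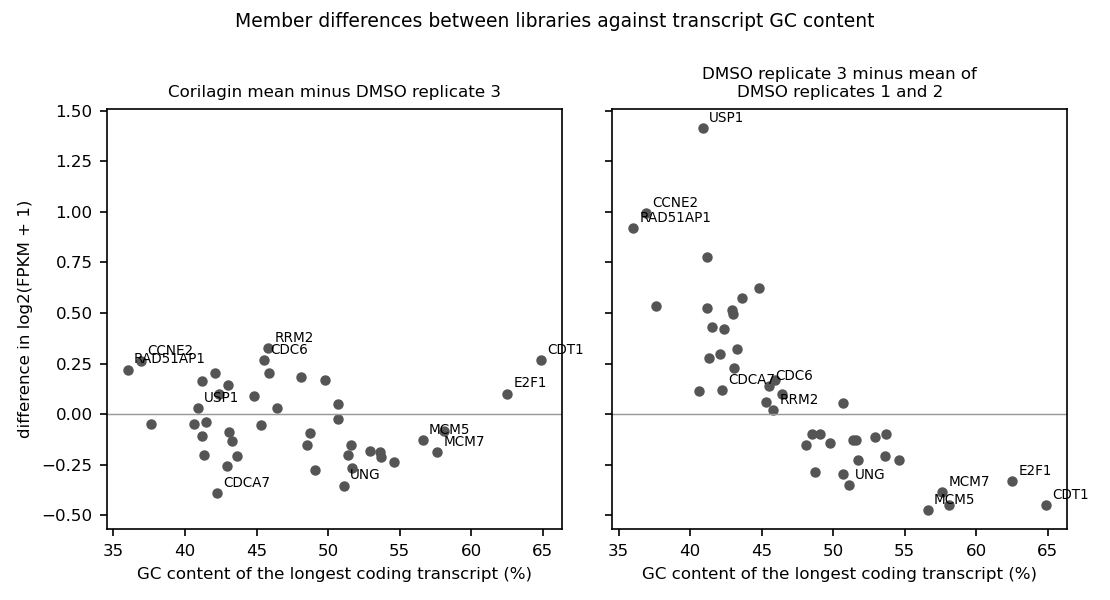
Difference in log2(FPKM + 1) of each of the 43 genes (points) against the GC content of its longest coding transcript (x axis, %). The left panel sets the mean of the corilagin libraries against DMSO replicate 3, with a Spearman correlation of -0.27, and the right panel sets DMSO replicate 3 against the mean of DMSO replicates 1 and 2, with -0.897.

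The question put to the libraries was which of these transcripts corilagin changed. The genes did not move as a block. CDC6, DTL, RRM2, E2F8, CCNE2 and RAD51AP1 rose under corilagin, while MCM7, CDC45, GINS2, RFC2, FEN1, CDC25A, UHRF1, CDCA7 and UNG fell. Apart from the rises of CCNE2 and RAD51AP1, the changes were under 1.6-fold, and they were seen beside a 7.38-fold rise of CDKN1A. Of the 43 genes, all of which passed the filter of a mean of at least 1 FPKM, 6 (14.0%) were higher, 9 (20.9%) were lower and 28 were not called at a limma adjusted p under 0.05. Among all 9868 genes tested 11.9% were higher and 13.5% lower, so that 25.4% were called, beside 34.9% of the 43. Over all genes this was 1171 higher and 1331 lower as deposited, and 1620 and 1059 when the libraries were rescaled to equal FPKM sums, which moved the median of all genes to 0.14 on the log2 scale. The 43 then held 6 higher and 6 lower genes. As deposited, the median log2 difference of the 43 was 0.06, against 0.04 over all genes tested.

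The groups did not overlap for 27 of the 43 genes (62.8%), 11 of them with corilagin above and 16 with corilagin below, against 25.0% and 23.3% of all genes tested, or 48.3% together. All 15 called genes were among these 27. Their call and direction were also found for 14 of the 15 after GC correction (FEN1 was the exception), where 45.0% of all genes were called. Against DMSO replicate 3 alone, assumed to vary like the corilagin libraries, 15 of 15 were called in the same direction, with 38.0% of all genes called. The side of these 15 genes against DMSO replicate 3 was fixed in advance, because their groups do not overlap. They were also picked by their call in these same libraries. The shares that kept a call therefore cannot be weighed against the rates over all genes, which were not picked. The share kept among all genes called as deposited is not given here. As deposited, the calls depended on which libraries were in the fit. Leaving out any 1 corilagin library or DMSO replicate 2 left none of the 43 called by limma, and leaving out DMSO replicate 1 left UNG alone (adjusted p = 0.0497). Those 5-library fits also called fewer genes in all, for example 131 higher and 190 lower without corilagin replicate 1. Without DMSO replicate 3, 20 of the 43 were higher (40.8% of all genes) and 18 lower (36.5% of all genes), with 77.3% of all genes called. With the GC correction, 13 to 15 of the 15 kept their call whichever library was left out. Those fits were chosen after seeing the data. Over all 9859 genes they called 1419 to 3104 higher and 1624 to 3259 lower.

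**Figure D2:**
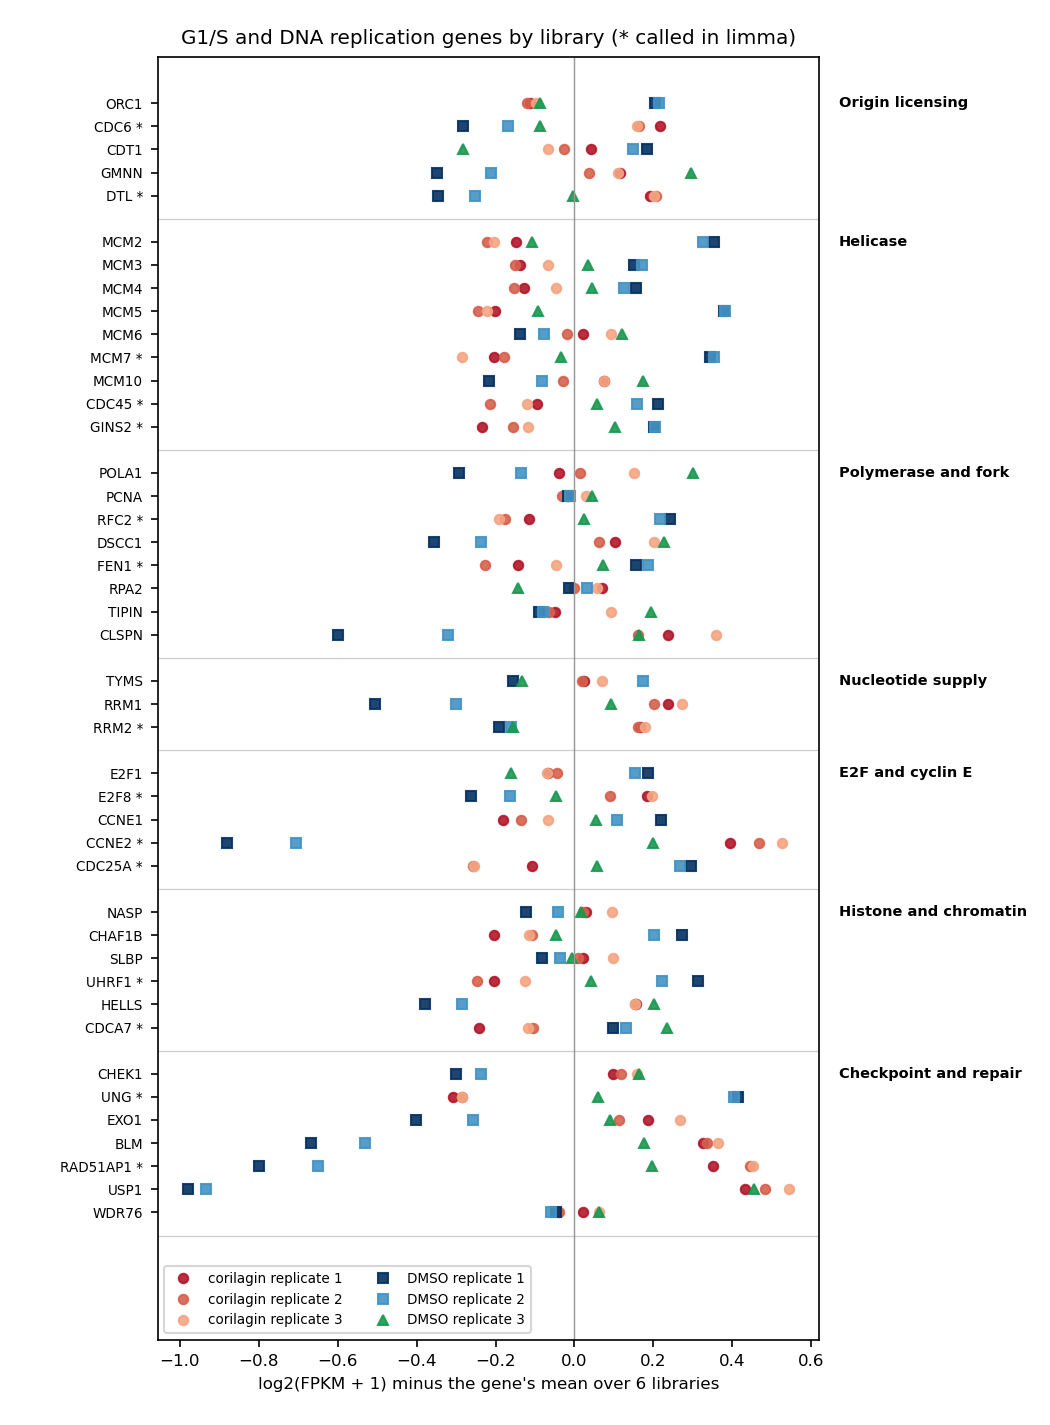
Each row is 1 of the 43 genes, grouped by role, and each point is 1 library, placed by its log2(FPKM + 1) minus the gene's mean over 6 libraries (x axis). Circles are the 3 corilagin libraries, squares DMSO replicates 1 and 2, and green triangles DMSO replicate 3; for 30 genes the triangle lies nearer to the corilagin mean than to the squares.

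Promoters are shown for 4 called genes, CDC6 and DTL, which rose, and MCM7 and CDC25A, which fell, because genes of both directions carry an E2F word. The windows span the RefSeq start of transcription (GRCh38.p14) and are read 5′ to 3′ on the gene's strand. Capitals mark matches on either strand to TTTCCCGC, TTTCGCGC, TTTGCCGC or TTTGGCGC, the 4 spellings of the E2F motif searched. The windows are CDC6 at chr17:40287629-40287928 (plus strand), DTL at chr1:212035498-212035797 (plus strand), MCM7 at chr7:100101348-100101647 (minus strand) and CDC25A at chr3:48188368-48188667 (minus strand).
CDC6: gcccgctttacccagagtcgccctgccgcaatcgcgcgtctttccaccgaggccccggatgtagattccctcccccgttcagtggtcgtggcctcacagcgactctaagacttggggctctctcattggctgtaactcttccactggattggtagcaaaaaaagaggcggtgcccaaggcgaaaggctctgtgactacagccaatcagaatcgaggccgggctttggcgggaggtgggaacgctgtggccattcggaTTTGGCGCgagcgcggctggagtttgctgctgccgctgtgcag
DTL: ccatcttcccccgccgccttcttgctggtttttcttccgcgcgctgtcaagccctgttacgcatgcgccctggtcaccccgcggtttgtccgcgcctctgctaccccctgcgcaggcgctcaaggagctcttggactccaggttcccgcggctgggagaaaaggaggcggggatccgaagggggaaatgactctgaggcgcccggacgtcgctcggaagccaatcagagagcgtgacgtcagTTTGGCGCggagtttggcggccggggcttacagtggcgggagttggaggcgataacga
MCM7: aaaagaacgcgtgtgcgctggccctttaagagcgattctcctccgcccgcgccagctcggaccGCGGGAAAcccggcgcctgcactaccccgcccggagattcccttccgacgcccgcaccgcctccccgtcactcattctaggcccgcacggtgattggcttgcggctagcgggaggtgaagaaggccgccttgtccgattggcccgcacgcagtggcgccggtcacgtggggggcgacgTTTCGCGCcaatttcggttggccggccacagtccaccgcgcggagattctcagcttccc
CDC25A: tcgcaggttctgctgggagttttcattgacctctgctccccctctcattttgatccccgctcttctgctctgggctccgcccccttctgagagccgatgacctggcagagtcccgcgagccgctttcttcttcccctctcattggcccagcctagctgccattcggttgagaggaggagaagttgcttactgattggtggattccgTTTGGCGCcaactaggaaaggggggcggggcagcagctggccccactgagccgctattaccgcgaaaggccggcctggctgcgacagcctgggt

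Counting the first transcribed base as 1 and the base before it as -1, the match lay at bases 8 to 15 in CDC6, -8 to -1 in DTL and -44 to -37 in CDC25A. MCM7 held 1 match at -9 to -2 and another, on the opposite strand, at -187 to -180. A promoter window was matched by symbol for 36 of the 43 genes (not MCM4, MCM5, DSCC1, RPA2, E2F8, CCNE2 and WDR76). An E2F word was present in 18 of the 36 (50.0%), against 480 of 8105 windows of tested genes (5.92%) and 1164 of all 35116 windows (3.31%). It was found in 2 of 4 genes that rose, 5 of 9 that fell and 11 of 23 not called. By role it stood in 5 of 7 helicase genes and in 1 of 6 checkpoint and repair genes, that one being EXO1. MCM2 and MCM6 held pairs of matches that overlap on opposite strands. CCAAT, the word bound by NF-Y, was in 25 of 36 windows (69.4%, against 37.4% of those of tested genes), GGGCGG in 30 (83.3%, against 71.6%) and TTTGAA, found in promoters of mitotic genes, in 1 (against 9.52%). These counts describe letters in the window and say nothing of which factor was bound.

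The 5 licensing genes split. CDC6, the loader of the MCM ring, had 44.4, 42.7 and 42.6 FPKM under corilagin, against 31.1, 33.7 and 35.8 FPKM under DMSO. Every corilagin library lay above every DMSO library, and DMSO replicate 3 was close to its fellows. CDC6 (ENSG00000094804, GRCh38 chromosome 17, 40287633 to 40304657, plus strand) rose 1.29-fold, with a log2 difference of 0.36 (SE 0.0806, adjusted p = 0.0231), or 0.27 after GC correction (adjusted p = 0.00264). DTL, the substrate receptor that marks CDT1 for destruction in S phase, had 33.6, 33.9 and 33.8 FPKM under corilagin, against 22.8, 24.4 and 29.2 FPKM under DMSO. DTL rose 1.33-fold (log2 difference 0.40, SE 0.102, adjusted p = 0.0321), with DMSO replicate 3 between the other DMSO libraries and corilagin. The DTL difference shrank to 0.14 after GC correction (adjusted p = 0.0373), and that corrected call held in 1 of 6 fits that left out a library.

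The other licensing genes were not called. CDT1 averaged 65.1 ± 2.58 FPKM under corilagin and 67.3 ± 11.6 FPKM under DMSO (SD, n = 3 each), with overlapping groups. DMSO replicate 3 was the lowest library for CDT1, at 53.9 FPKM, and the sign of the difference turned after GC correction (log2 0.21, adjusted p = 0.0141). For geminin, DMSO replicate 3 was instead the highest library: GMNN had 42.3, 40.0 and 42.1 FPKM under corilagin, against 30.4, 33.5 and 48.0 FPKM under DMSO. Its sign also turned, to -0.01 after GC correction (adjusted p = 0.942). The ratio of CDT1 to GMNN within a library was 1.60, 1.62 and 1.49 under corilagin, and 2.47, 2.18 and 1.12 in DMSO, so DMSO spanned the corilagin values (exact 2-sided permutation p = 0.4). ORC1, the largest subunit of the origin recognition complex, averaged 31.5 ± 0.268 FPKM under corilagin and 37.0 ± 4.34 FPKM under DMSO (adjusted p = 0.125), where DMSO replicate 3 lay at 32.0 FPKM; it was called lower after GC correction (log2 -0.16, adjusted p = 0.0488). Within a library the ratio of CDC6 to ORC1 was 1.41, 1.37 and 1.34 under corilagin, against 0.788, 0.850 and 1.12 in DMSO, without overlap (exact 2-sided permutation p = 0.1, the smallest that 3 against 3 libraries allow).

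The helicase genes lay mostly lower under corilagin. Of 9 genes, 3 fell, none rose and 6 were not called, where 13.5% of all genes fell and 11.9% rose. The median log2 difference of the 9 was -0.29, or -0.17 with equal FPKM sums. MCM7 had 121, 124 and 115 FPKM under corilagin, against 178, 179 and 137 FPKM under DMSO. No libraries overlapped between groups, though DMSO replicate 3 was nearer to corilagin. MCM7 (ENSG00000166508, chromosome 7, 100092728 to 100101940, minus strand) fell to 0.729 of its DMSO level (log2 difference -0.44, SE 0.117, adjusted p = 0.0351), or by 0.28 on the log2 scale after GC correction (adjusted p = 0.00376). CDC45, which joins the ring at origin firing, had 31.9, 29.3 and 31.4 FPKM under corilagin, against 39.8, 38.3 and 35.6 FPKM under DMSO (ratio 0.815, adjusted p = 0.0402). GINS2, a subunit of the GINS complex, had 14.3, 15.2 and 15.6 FPKM under corilagin, against 19.7, 19.7 and 18.3 FPKM under DMSO (ratio 0.779, adjusted p = 0.0252). For both, the 3 DMSO libraries were close together and all above corilagin, and the log2 differences of -0.29 and -0.34 became -0.21 and -0.31 after GC correction.

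The other ring subunits differed in size and, for MCM6, in sign. MCM5 had 44.5, 43.2 and 43.9 FPKM under corilagin, against 67.0, 67.1 and 48.0 FPKM under DMSO (ratio 0.722, adjusted p = 0.0508). MCM2 averaged 86.6 ± 2.37 FPKM under corilagin and 114 ± 19.5 FPKM under DMSO (adjusted p = 0.0659). MCM3 and MCM4 had ratios of 0.847 and 0.858 (adjusted p = 0.0538 and 0.0644). In all 4 the groups did not overlap, yet none passed the threshold. MCM6, with 43.1% GC the poorest in GC of the 6 subunits, averaged 92.1 ± 3.64 FPKM under corilagin and 88.3 ± 8.50 FPKM under DMSO (log2 0.06, adjusted p = 0.593).

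With the GC correction, all 6 ring subunits were called lower, with log2 differences from -0.14 for MCM6 (adjusted p = 0.0349) to -0.29 for MCM5 (adjusted p = 0.00835). In that fit 8 of the 9 helicase genes were lower and none higher, where 23.2% of all genes were lower. MCM10, which acts at the start of firing, was the gene not called (log2 -0.12, adjusted p = 0.0857). With the replicate block as well, MCM6 was not called (adjusted p = 0.0718). Against DMSO replicate 3 alone all 9 had a negative sign, as did 4836 of all 9868 genes tested. Except for MCM6 (-0.088) and MCM10 (-0.134), that sign was fixed in advance, because the groups did not overlap. There the log2 differences of the ring subunits ran from -0.083 for MCM2 to -0.188 for MCM7, with -0.129 for MCM5. Each was smaller in size than after GC correction. The summed FPKM of MCM2 to MCM7 was 545, 536 and 549 under corilagin, against 695, 697 and 598 in DMSO, without overlap (exact 2-sided permutation p = 0.1). MCM6 made up 16.8, 16.6 and 17.5% of that sum under corilagin, against 11.8, 12.2 and 16.4% in DMSO, so its share in DMSO replicate 3 was close to that in the corilagin libraries.

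**Figure D3:**
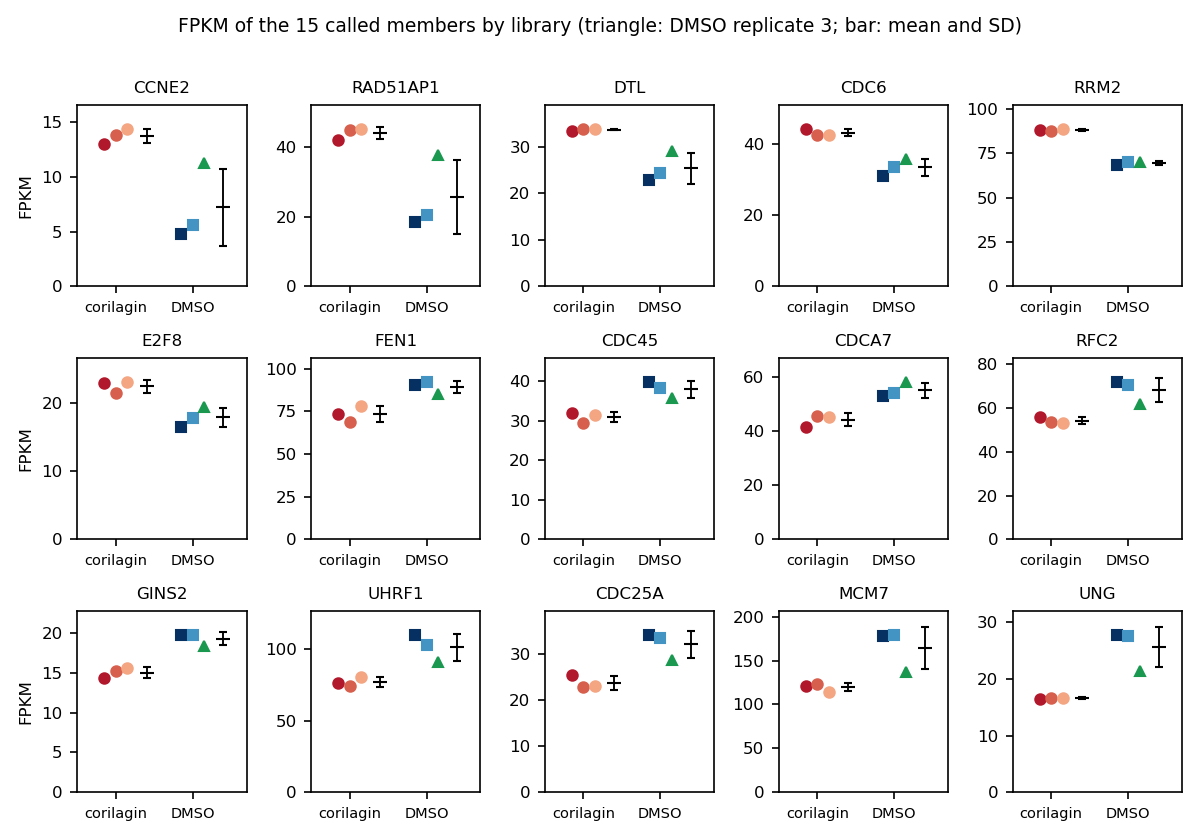
FPKM (y axis from 0) of the 15 called genes in the 3 corilagin libraries (circles) and in DMSO (squares, replicates 1 and 2; triangle, replicate 3), with bars for the mean and SD. In RRM2 the DMSO libraries sit together at 68.4 to 70.1 FPKM, whereas in CCNE2 and RAD51AP1 DMSO replicate 3 lies well above the other DMSO libraries.

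Among 8 polymerase and fork genes 2 fell, none rose and 6 were not called, with a median log2 difference of 0.04. Over all genes 13.5% fell and 11.9% rose. RFC2, a subunit of the clamp loader, had 55.9, 53.6 and 53.0 FPKM under corilagin, against 71.9, 70.7 and 61.7 FPKM under DMSO (ratio 0.795, adjusted p = 0.0350). FEN1, the nuclease that trims Okazaki fragments, had 73.2, 69.0 and 78.4 FPKM under corilagin, against 90.4, 92.3 and 85.2 FPKM under DMSO (ratio 0.824, adjusted p = 0.0435). Both sets of libraries stayed apart, but the FEN1 call ended after GC correction (log2 -0.17, adjusted p = 0.0615) and in limma-voom on recovered fragments (adjusted p = 0.0510).

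PCNA, the sliding clamp, was the most abundant of the 43, with 295, 292 and 304 FPKM under corilagin, against 295, 296 and 308 FPKM under DMSO. The groups overlapped (log2 -0.01, SE 0.0658, adjusted p = 0.897). POLA1, the catalytic subunit of the primase-bound polymerase, was the least abundant, at 4.28 ± 0.365 FPKM under corilagin and 4.05 ± 1.12 FPKM under DMSO. CLSPN, the adaptor that passes fork stress on to CHEK1, had 13.2, 12.4 and 14.4 FPKM under corilagin, against 6.94, 8.64 and 12.5 FPKM under DMSO (log2 0.51, adjusted p = 0.0793). The groups overlapped at DMSO replicate 3, and after GC correction CLSPN was called higher (log2 0.38, adjusted p = 0.0455), although against DMSO replicate 3 alone it was not (0.09, adjusted p = 0.389). The single-strand binding subunit RPA2, the alternative clamp loader subunit DSCC1 and the fork protection factor TIPIN were not called, with adjusted p of 0.409, 0.238 and 0.916. TIPIN was called lower after GC correction (log2 -0.32, adjusted p = 0.00588), although its groups overlapped as deposited (log2 -0.02). Its log2 difference was 0.08 from the mean of DMSO replicates 1 and 2, and -0.20 from DMSO replicate 3.

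Nucleotide supply held a rise with little spread. RRM2, the small and cell-cycle-regulated subunit of ribonucleotide reductase, had 87.9, 87.6 and 88.8 FPKM under corilagin, against 68.4, 69.9 and 70.1 FPKM under DMSO. Both groups were tight, and DMSO replicate 3 lay with the other DMSO libraries. RRM2 (ENSG00000171848, chromosome 2, 10120698 to 10131419, plus strand) rose 1.27-fold, with a log2 difference of 0.34 (SE 0.0657, adjusted p = 0.0153), 0.26 after GC correction (adjusted p = 0.00240) and 0.33 against DMSO replicate 3 alone (adjusted p = 0.000225). RRM1, the large subunit, had 87.8, 85.6 and 89.9 FPKM under corilagin, against 52.1, 60.2 and 79.3 FPKM under DMSO (1.37-fold, adjusted p = 0.0530). The RRM1 libraries were more scattered under DMSO, and its log2 difference was 0.47 as deposited, 0.26 after GC correction (adjusted p = 0.0161) and 0.14 against DMSO replicate 3 alone (adjusted p = 0.0297). TYMS, which makes thymidylate, averaged 17.3 ± 0.356 FPKM under corilagin and 16.4 ± 2.31 FPKM under DMSO (log2 0.08, SE 0.107, adjusted p = 0.590).

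The E2F and cyclin E genes changed in both directions, and the 2 cyclin E genes lay on opposite sides. CCNE2 had 13.0, 13.8 and 14.4 FPKM under corilagin, against 4.80, 5.55 and 11.3 FPKM under DMSO. The corilagin libraries were all higher, with DMSO replicate 3 close below them. CCNE2 rose 1.91-fold (log2 difference 0.93, SE 0.262, adjusted p = 0.0420), but 1.22-fold relative to DMSO replicate 3, and its log2 difference was 0.44 after GC correction (adjusted p = 0.00316). CCNE1 had 22.2, 23.0 and 24.1 FPKM under corilagin, against 29.6, 27.3 and 26.3 FPKM under DMSO, without overlap and without a call (ratio 0.832, adjusted p = 0.0566). CCNE2 transcripts are 36.9% GC and those of CCNE1 52.9%. The ratio of CCNE2 to CCNE1 was 0.588, 0.601 and 0.597 in the corilagin libraries, against 0.162, 0.203 and 0.429 in DMSO (exact 2-sided permutation p = 0.1).

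E2F8, a repressor of the family, had 22.9, 21.4 and 23.1 FPKM under corilagin, against 16.6, 17.8 and 19.4 FPKM under DMSO (1.26-fold, adjusted p = 0.0393). E2F1, an activator, averaged 41.0 ± 0.412 FPKM under corilagin and 44.9 ± 5.87 FPKM under DMSO (adjusted p = 0.395), and its sign turned after GC correction (log2 0.10, adjusted p = 0.0774). CDC25A, the phosphatase that activates cyclin-dependent kinases at G1/S, had 25.5, 22.9 and 22.9 FPKM under corilagin, against 34.1, 33.4 and 28.7 FPKM under DMSO. All corilagin libraries were lower for CDC25A (ENSG00000164045, chromosome 3, 48157146 to 48188402, minus strand), which fell to 0.742 of DMSO (log2 difference -0.41, SE 0.0957, adjusted p = 0.0252; -0.34 after GC correction, adjusted p = 0.00181).

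Of 6 genes of histone supply and chromatin, 2 fell, none rose and 4 were not called, beside 13.5% lower and 11.9% higher over all genes. UHRF1, which recruits DNMT1 to newly copied DNA, had 76.2, 73.9 and 80.6 FPKM under corilagin, against 110, 103 and 90.6 FPKM under DMSO (ratio 0.761, adjusted p = 0.0275). CDCA7, the partner of the remodeller HELLS, had 41.4, 45.7 and 45.3 FPKM under corilagin, against 52.8, 54.0 and 58.1 FPKM under DMSO (ratio 0.803, adjusted p = 0.0329). DMSO replicate 3 was here the library farthest from corilagin, and the CDCA7 log2 difference grew from -0.31 as deposited to -0.57 after GC correction (adjusted p = 0.000944). HELLS averaged 18.9 ± 0.0163 FPKM under corilagin and 15.4 ± 3.70 FPKM under DMSO (adjusted p = 0.150), with DMSO replicate 3 above corilagin at 19.6 FPKM. CHAF1B, a subunit of the histone chaperone CAF-1, averaged 13.2 ± 0.523 FPKM under corilagin and 16.3 ± 1.97 FPKM under DMSO (adjusted p = 0.0774), and was called lower after GC correction (log2 -0.27, adjusted p = 0.0194). NASP, a chaperone of histone H3, and SLBP, which binds the stem-loop of histone mRNA, had ratios of 1.07 and 1.06 (adjusted p = 0.325 and 0.356).

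The 7 checkpoint and repair genes included, as deposited, the deepest fall of the 43 and some of the widest spreads within DMSO. UNG, which removes uracil from DNA, had 16.4, 16.7 and 16.7 FPKM under corilagin, against 27.7, 27.5 and 21.5 FPKM under DMSO. All corilagin libraries lay below DMSO, replicate 3 included. UNG (ENSG00000076248, chromosome 12, 109097574 to 109110992, plus strand) fell to 0.649 of DMSO, the lowest ratio of the 43 as deposited (log2 difference -0.59, SE 0.111, adjusted p = 0.0145), and by 0.52 on the log2 scale after GC correction (adjusted p = 0.000622). CDCA7 lay lower than UNG after GC correction (-0.57) and against DMSO replicate 3 alone (-0.39, with -0.35 for UNG). RAD51AP1, a factor of homologous recombination, had 42.2, 45.1 and 45.4 FPKM under corilagin, against 18.5, 20.6 and 37.8 FPKM under DMSO. RAD51AP1 rose 1.73-fold (log2 difference 0.83, SE 0.242, adjusted p = 0.0446), but its transcript is 36.0% GC, the lowest of the 43, and the difference was 0.32 after GC correction (adjusted p = 0.00279) and 0.22 against DMSO replicate 3 alone.

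USP1, the deubiquitinase of FANCD2 and PCNA, showed how far DMSO replicate 3 could lie from the others: it had 52.1, 54.0 and 56.3 FPKM under corilagin, against 18.9, 19.6 and 52.9 FPKM under DMSO. Its 1.78-fold difference was not called (adjusted p = 0.0792), while after GC correction it was (log2 0.65, adjusted p = 0.0448), and against DMSO replicate 3 alone the ratio was 1.02. BLM, a RecQ helicase, had 18.4, 18.5 and 18.9 FPKM under corilagin, against 8.75, 9.72 and 16.5 FPKM under DMSO (1.60-fold, adjusted p = 0.0509; log2 0.68 as deposited and 0.38 after GC correction, adjusted p = 0.0104). EXO1, a resection nuclease, differed 1.30-fold (adjusted p = 0.0699) and the checkpoint kinase CHEK1 1.18-fold (adjusted p = 0.165). For CHEK1 the library of DMSO replicate 3 lay above all corilagin libraries. WDR76 had 31.9, 30.6 and 32.9 FPKM under corilagin, against 30.4, 30.2 and 32.9 FPKM under DMSO (adjusted p = 0.777), and was called lower after GC correction (log2 -0.30, adjusted p = 0.0386).

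**Figure D4:**
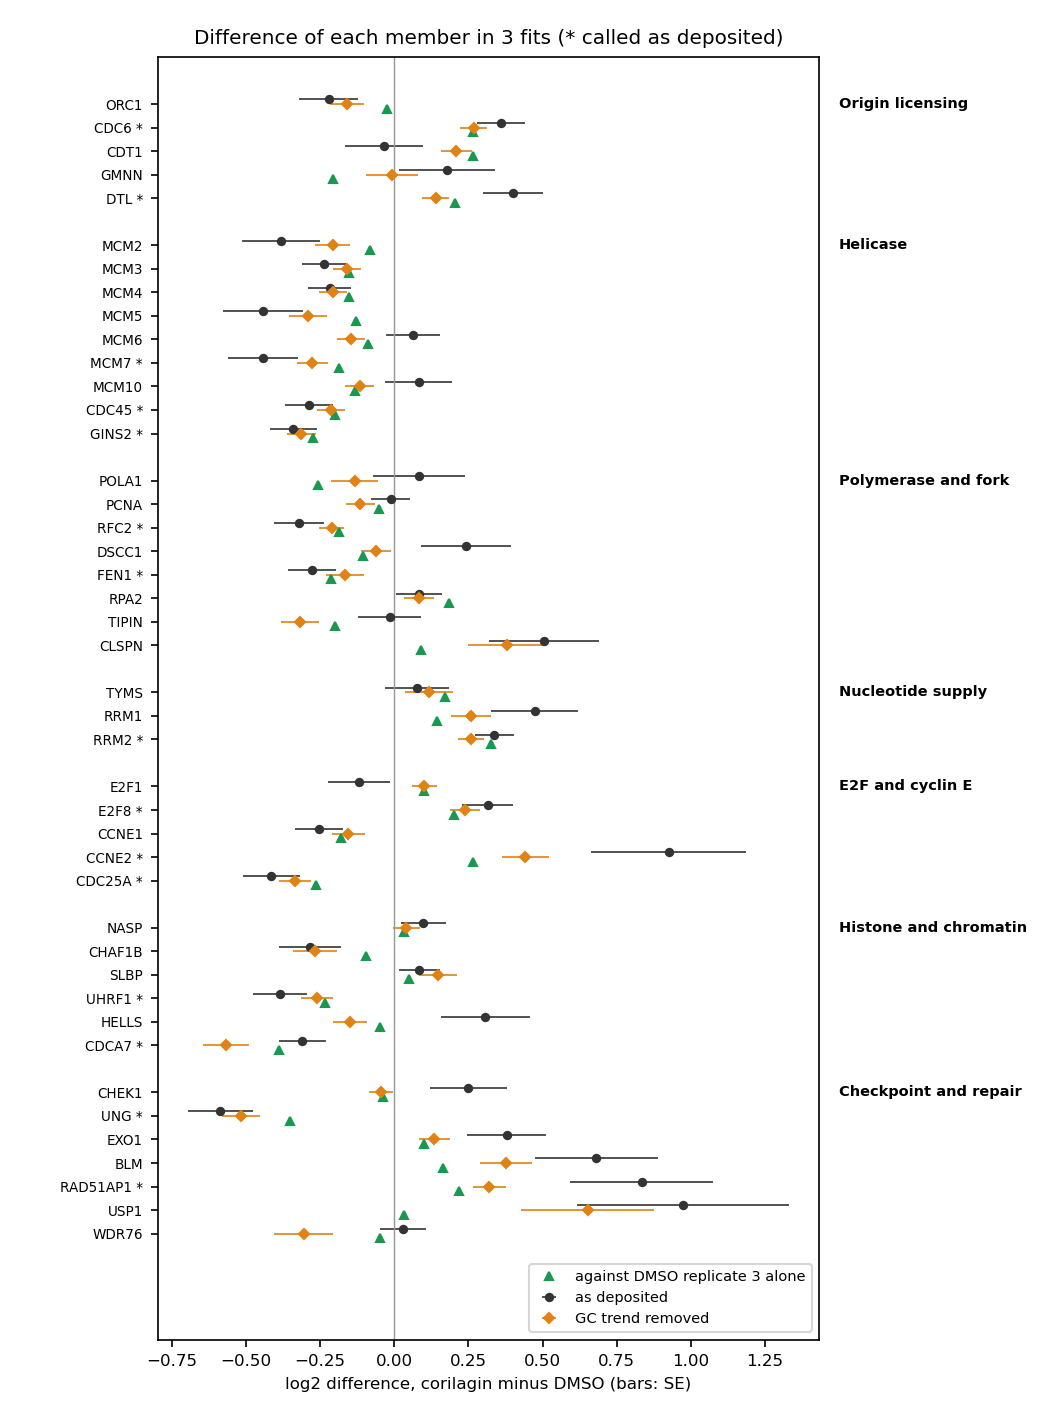
Log2 difference of corilagin minus DMSO (x axis) for each of the 43 genes, as deposited (circles, bars are SE), after GC correction (diamonds, bars are SE) and against DMSO replicate 3 alone (triangles). The 15 genes marked with a star keep their side of 0 in all 3, and the helicase genes all lie below 0 in the last 2. For the starred genes and for MCM2 to MCM5 the side against DMSO replicate 3 was fixed in advance, because their groups do not overlap.

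With the GC correction, 11 of the 43 were higher (21.8% of all genes were) and 17 lower (23.2% of all genes were), with a median log2 difference of -0.12 against -0.005 over all genes. Of the 28 genes not called as deposited, 5 were then higher and 9 lower. The sign of 10 genes differed between the values as deposited and those with the trend removed. None of these 10 was called as deposited.

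Other genes of the same processes were counted in lists that do not include the 43. Their counts stand beside 11.9% higher and 13.5% lower over all genes as deposited, and 21.8% and 23.2% after GC correction. Of 17 further licensing and firing genes, 2 rose, 1 fell and 14 were not called as deposited, and 5 were higher and 3 lower after GC correction. DONSON, a replisome assembly factor, and ORC6 rose 1.41-fold and 1.23-fold (adjusted p = 0.0417 and 0.0453), while GINS1, which sits in 1 complex with GINS2, averaged 11.5 ± 0.314 FPKM under corilagin and 15.5 ± 0.461 FPKM under DMSO (ratio 0.742, adjusted p = 0.0137). The GINS1 log2 difference of -0.40 became -0.70 after GC correction, and that of ORC6, 0.29 as deposited, became 0.15. Of 26 tested among 29 polymerase and fork genes, 1 rose and 5 fell as deposited, and 3 were higher and 8 lower after GC correction. POLD1 and POLD2, subunits of polymerase delta, fell to 0.707 and 0.688 of DMSO (adjusted p = 0.0290 and 0.0256). CHTF18, of the alternative clamp loader that holds DSCC1, fell to 0.719 (adjusted p = 0.0213), a call that ended after GC correction (adjusted p = 0.0534). POLE3, a subunit of polymerase epsilon, and RNASEH2C, of the RNase H2 complex, fell to 0.841 and 0.734 (adjusted p = 0.0423 and 0.0457) and were named after their values were seen. The POLE3 call ended in limma-voom (adjusted p = 0.0519) and the RNASEH2C call against DMSO replicate 3 alone (adjusted p = 0.0896). The rise was PCLAF, a PCNA-binding factor, at 1.46-fold (adjusted p = 0.0143; 0.0591 after GC correction).

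Of 10 tested among 11 further nucleotide supply genes, 1 rose and 3 fell as deposited, and 2 were higher and 5 lower after GC correction. RRM2B, the p53-inducible counterpart of RRM2, averaged 39.9 ± 0.749 FPKM under corilagin and 19.5 ± 9.25 FPKM under DMSO, 2.04-fold higher, or 1.32-fold relative to DMSO replicate 3 (log2 1.08 as deposited and 0.58 after GC correction). DCTPP1, which removes non-canonical dCTP, averaged 18.9 ± 1.06 FPKM under corilagin and 34.3 ± 4.74 FPKM under DMSO (ratio 0.550, adjusted p = 0.00651). DCTD, a deaminase of dCMP, fell to 0.797 of DMSO (adjusted p = 0.0360), and NME1, a nucleoside diphosphate kinase named after its values were seen, averaged 2.11 ± 0.0226 FPKM under corilagin and 4.65 ± 0.480 FPKM under DMSO (adjusted p = 0.00256).

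Upstream of these genes, 3 of 26 tested genes of the RB, E2F and CDK list rose (CDKN1A, RB1 and LIN54) and 3 fell (CDK4, CCND3 and E2F4) as deposited. In this list 10 genes were higher and 5 lower after GC correction, and 9 were higher and 6 lower against DMSO replicate 3 alone (19.4% and 18.6% of all genes). CDKN1A averaged 38.1 ± 2.22 FPKM under corilagin and 5.17 ± 1.44 FPKM under DMSO (adjusted p = 0.00101). CDK4, the kinase that acts with D cyclins on RB, averaged 27.5 ± 0.530 FPKM under corilagin and 46.5 ± 6.43 FPKM under DMSO (ratio 0.591, adjusted p = 0.00801). RB1 and LIN54 rose 1.61-fold and 1.55-fold as deposited, with log2 differences of 0.72 and 0.62 that became 0.25 and 0.21 after GC correction. CCND3 (cyclin D3) and E2F4, a repressor of the family, fell to 0.706 and 0.710 of DMSO (adjusted p = 0.0421 and 0.0303).

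Among 24 tested mitosis genes, the closest neighbours in the cell cycle, CDC20, PLK1 and CCNB1 fell as deposited, to 0.640, 0.669 and 0.749 of DMSO (adjusted p = 0.0255, 0.0289 and 0.0159), and none was called higher. After GC correction 6 were higher and 5 lower, and against DMSO replicate 3 alone 2 were higher and 5 lower. MKI67, the proliferation marker, had a ratio of 1.48 (adjusted p = 0.0595), or 1.09 relative to DMSO replicate 3 alone, and was called higher after GC correction (adjusted p = 0.0307). TOP2A, a topoisomerase counted with the fork genes, had a ratio of 1.76 (adjusted p = 0.0840), or 1.01 relative to DMSO replicate 3 alone. The median log2 difference of the mitosis list was 0.19 as deposited and 0.01 after GC correction, and its difference from that of the 43 was not tested.

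**Figure D5:**
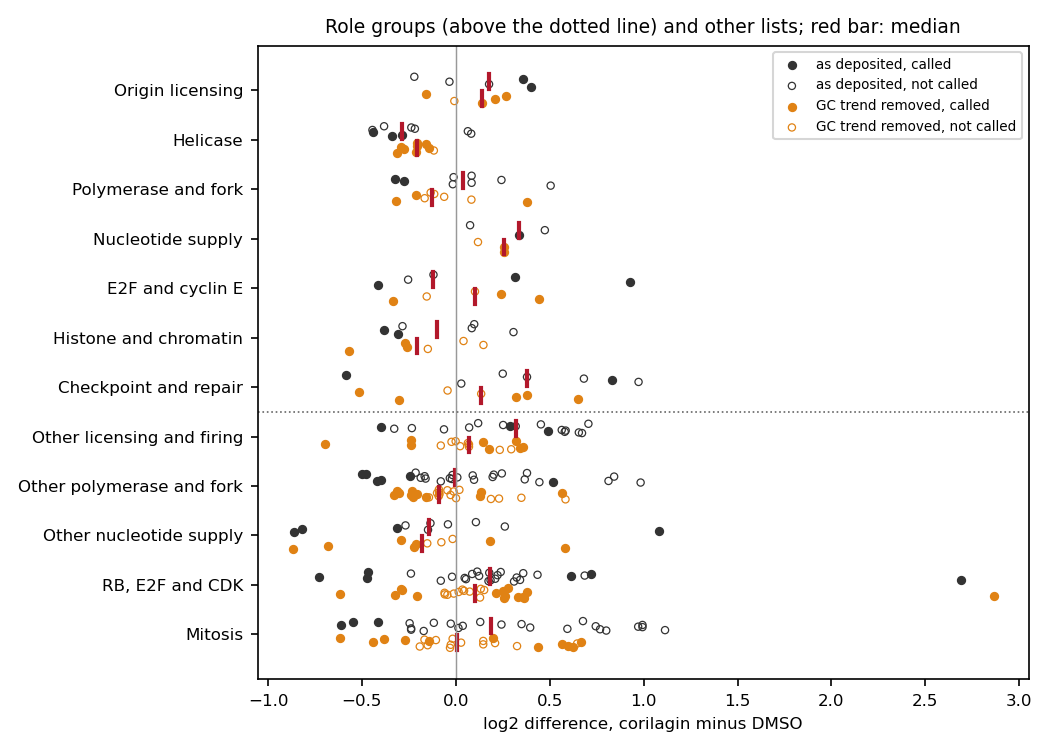
Log2 difference of corilagin minus DMSO (x axis) for the tested genes of the 7 role groups and of the 5 other lists, as deposited (dark) and with that correction, labelled GC trend removed (orange); filled points are called, open ones are not, and red bars are medians. The helicase medians are -0.29 as deposited and -0.21 after GC correction, and the point at the far right is CDKN1A.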

How the data were processed

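Per the labels' protocols, libraries were made from poly(A) RNA and read in pairs, and nothing says that strand was kept. The submitters' processing notes name fastp 0.22.0, HISAT2 2.1.0, HTSeq 0.9.1, DESeq 1.38.3 and GRCh38, without settings. The authors deposited FPKM, which depends on gene length and library composition, so a few abundant genes or shared reads of paralogs and overlapping genes can shift values. The members, lists and tests were chosen with earlier results of these data known.

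Symbols matched 20011 of 20036 genes, and coordinates and GC content came from GENCODE 29 (GRCh38), where GC is that of the longest coding transcript. Fragments were recovered as whole multiples of the FPKM step (tolerance 0.01) for the 15118 genes above 0 in at least 2 libraries, and totals are approximate. For 139 genes, counts sharing a factor were multiplied back using exon length. No library repeated another, since even the closest pair, corilagin replicates 1 and 2, gave 2.45 chi-square units per gene where sampling alone gives 1.

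Differences were tested in 1 fit of all 6 libraries on log2(FPKM + 1) with limma 3.58.1 (R 4.3.3, trended prior, 2-sided). Genes averaging 1 FPKM or more entered (9868), Benjamini-Hochberg adjustment ran over all of them, and the threshold was 0.05. This scale understates changes of low genes; folds are ratios of mean FPKM. The GC trend was a natural spline with 5 degrees of freedom per library, and its removal also takes out any true difference that follows GC content. The fit was tested on simulated data. With a GC trend put into DMSO replicates 1 and 2, the uncorrected fit recovered fewer of the smaller changes and made more false calls. After GC correction it recovered about as many as without the trend. The simulated trend was linear on the same GC content that the correction fits, so this recovery was built in. It cannot show how well the correction works on these libraries. Genes outside the 43 were named as up to 3 rises and 3 falls per list with a mean of at least 5 FPKM, plus CDKN1A, MKI67 and TOP2A. POLE3, RNASEH2C and NME1 were named outside this rule, after their values were seen, and NME1 averaged 3.38 FPKM over all libraries. Some markers of other cell types are not reported here.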

Additional observations from a re-analysis of the deposited data

How the results depend on the processing

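The 6 higher and 9 lower genes stood at 6 and 9 with a pseudocount of 0.1 or 0.5, and all kept their direction in every alternative run. In the runs without GC correction that left out libraries, that direction was fixed in advance, because the groups of these genes do not overlap. Without a filter 3 were higher and 7 lower, with a filter of 5 FPKM 6 and 10, in limma-voom 7 and 8, and after GC correction 11 and 17. Calls over all genes moved as well. They were 934 higher and 1026 lower of 15921 without a filter, and 713 and 1010 of 6570 with a filter of 5 FPKM. In limma-voom they were 1242 and 1327 of 9868, and after GC correction 2151 and 2287 of 9859. Removing 1 library at a time gave 0 to 20 higher and 0 to 18 lower, or 6 to 14 and 10 to 21 after GC correction, an alternative chosen after seeing the data. Over all genes these ranges were 131 to 4030 higher and 176 to 3597 lower, or 1419 to 3104 and 1624 to 3259. Removing DMSO replicates 1 and 2 together gave 11 and 14. Equal FPKM sums, median-of-ratios and quantile scaling gave 6 and 6, 5 and 13, and 8 and 6, and put the median of all genes at 0.14, -0.006 and -0.018. Over all genes they gave 1620 higher and 1059 lower, 957 and 1518, and 1028 and 1498. Of all calls, 46.8% were higher as deposited, and 60.5, 38.7 and 40.7% under these scalings.

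Replicate numbers correlated at 0.28, 0.0787 and 0.339 between groups and not every library matched its own number best, so they were not taken as pairs. The replicate block gave 10 higher and 8 lower, or 10 and 16 after GC correction. Over all genes it gave 1547 higher and 1330 lower, or 2154 and 2237 after GC correction.

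Signs turned only for genes not called as deposited. With the GC correction, with or without the replicate block, log2 differences became 0.209 for CDT1, -0.008 for GMNN, -0.145 for MCM6, -0.117 for MCM10, -0.134 for POLA1, -0.062 for DSCC1, 0.102 for E2F1, -0.149 for HELLS, -0.044 for CHEK1 and -0.305 for WDR76. Against DMSO replicate 3 alone the same genes stood at 0.266, -0.207, -0.088, -0.134, -0.258, -0.107, 0.102, -0.048, -0.039 and -0.047. With equal sums CDT1, PCNA and TIPIN became 0.085, 0.109 and 0.093, with quantile scaling CDT1, POLA1 and PCNA became 0.079, -0.014 and 0.158, and with median-of-ratios WDR76 became -0.018. With 1 library left out, CDT1 ranged from -0.184 to 0.050, MCM10 from -0.005 to 0.190, POLA1 from -0.041 to 0.256, PCNA from -0.029 to 0.008 and TIPIN from -0.066 to 0.077. The cause of these turns was not tested. Count tests with a negative binomial model were not run, because the deposited values are FPKM.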
